A study of Mus musculus with 15 samples.

Results

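The kinases of the phosphoinositide 3-kinase (PI3K) and AKT pathway and the FOXO transcription factors below them were followed in the trigeminal ganglion (TG) of mice with an injured cornea. The genes were Pik3ca, Pdpk1, Akt1, Akt2, Sgk1, Prkca, Foxo1 and Foxo3, 8 of the 55573 genes in the table of read counts. They were chosen by symbol, as kinases upstream and targets downstream of the kinase complex mTORC2. No value here entered that rule, but earlier results of these data were known when the genes were chosen. All 8 were among the 16567 genes with enough reads to be tested.

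The TG holds the cell bodies of the sensory neurons that supply the cornea, together with satellite glia, Schwann cells and vessels. The donors were male CD1 mice aged 10 weeks. In every mouse, a disc of 2 mm in the centre of the right cornea had its epithelium and front stroma scraped away, so the vehicle group also carried the injury. The eye was then treated 3 times a day for 12 days, and the TG of that side was taken. The vehicle group (replicates 1 to 5), the RvD6 group (replicates 6 to 10) and the RvD6si group (replicates 11 to 15) had 5 samples each. RvD6, resolvin D6, is a dihydroxy lipid made from docosahexaenoic acid, and the labels call this group RvD6-standard. RvD6si, labelled RvD6-isomer, is a stereoisomer of it that was purified from the mouse eye. No uninjured ganglion was measured, and the labels do not say whether each sample was 1 mouse, so the p-values describe the spread between these samples.

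In textbook accounts, growth factor receptors recruit class I PI3K, which makes the membrane lipid PIP3. PIP3 brings AKT to the membrane, where the kinase PDK1, encoded by Pdpk1, phosphorylates its activation loop. The complex mTORC2, built around RICTOR, phosphorylates a second site in the tail of AKT, SGK1 and conventional protein kinase C. Active AKT and SGK1 phosphorylate FOXO1 and FOXO3 and keep them out of the nucleus, so that FOXO target genes are transcribed less. In sensory neurons this pathway is known for its part in survival and axon growth. Almost all of this control lies in phosphorylation, which an RNA measurement does not see.

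The samples held 4125962 to 9903396 counts each, and the median was 7756538. Markers of sensory neurons were present in every sample, with none of 10 genes at 0 in all samples. They summed to 7962 to 8531 CPM, the counts scaled to a library of fixed size, in vehicle, 4014 to 7594 in RvD6 and 7028 to 8871 in RvD6si, so vehicle and RvD6 did not overlap. The 5 satellite glia markers did not overlap between those groups either, at 6576 to 7712 CPM in vehicle and 4824 to 6206 in RvD6, and ran from 4498 to 6664 in RvD6si. Markers of Schwann cells summed to 13680 to 24100 CPM over all samples. Markers of other tissues also differed between groups. The 7 erythroid markers summed to 2264 to 4966 CPM in vehicle, 5716 to 10543 in RvD6 and 968 to 12855 in RvD6si, where replicate 15 was the highest. The 8 skeletal muscle markers summed to 46.1 to 189 CPM in vehicle, 124 to 3182 in RvD6 and 36.7 to 76.7 in RvD6si, with RvD6 replicates 8 and 9 far above the rest. The 10 genes listed as granulocyte precursor markers were Elane, Mpo, Prtn3, Ctsg, Ms4a3, Ngp, Camp, Ltf, S100a8 and S100a9. They summed to 112 to 582 CPM in vehicle, 690.1 to 2294 in RvD6 and 56.1 to 2115 in RvD6si. In RvD6si replicate 15 was the highest and the others were at most 136.4. A sum over this list does not tell precursors from mature granulocytes, nor marrow from blood. In bulk tissue, fewer cells of a type and less RNA per cell cannot be told apart.

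Per length of exon, Sgk1 had the highest level of the 8 genes and Foxo1 the lowest. Levels here are normalized read counts, that is counts divided by the size factor of the sample, per kb of exon and as mean ± SD of the 15 samples. Sgk1, a serum- and glucocorticoid-induced kinase, stood at 166 ± 36.7 per kb and Akt1 at 136 ± 30.2. Pdpk1 followed at 83.0 ± 15.2, Prkca, the alpha isoform of conventional protein kinase C, at 62.0 ± 18.02, and Akt2 at 51.0 ± 9.10. Foxo3 stood at 47.4 ± 13.1, Pik3ca, the p110alpha catalytic subunit of PI3K, at 32.1 ± 9.55, and Foxo1 at 28.4 ± 7.58. The step from Pdpk1 to Prkca held in 15 of 15 samples and that from Akt1 to Pdpk1 in 14. The steps from Prkca to Akt2 and from Akt2 to Foxo3 held in only 9 of 15 each, so these 3 genes were not separated beyond their spread. Sgk1 was above Akt1 in 11 samples and Pik3ca above Foxo1 in 11. Among all genes tested, 85.0% lay below Sgk1 and 47.9% below Foxo1.

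Some relatives of the 8 genes stood above them per kb of exon, and others were near the floor. Sgk1 gave 90.2 to 98.5% of the SGK level in the 15 samples. Foxo3 gave 53.2 to 69.1% of the FOXO level and Foxo1 30.9 to 43.0%, with Foxo4 and Foxo6 near the floor at 2.88 and 0.492 per kb. Among catalytic subunits of class I PI3K, Pik3cd, best known from leukocytes, stood at 43.8 ± 10.9 per kb and Pik3ca at 32.1 ± 9.55. Prkcd, a calcium-independent protein kinase C, was at 187 ± 49.2 per kb against 62.0 ± 18.02 for Prkca.

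**Figure D1:**
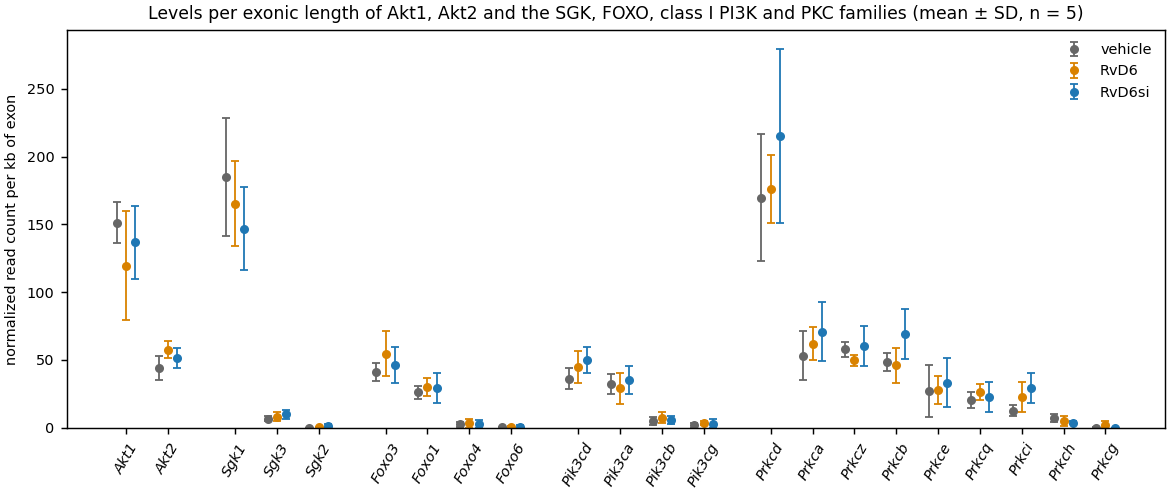
Normalized read count per kb of exon (vertical axis) of Akt1, Akt2 and the SGK, FOXO, class I PI3K and protein kinase C genes, as mean ± SD of 5 samples a group, coloured by group. Akt1 stands above Akt2, Pik3cd beside Pik3ca, and Prkcd above the other protein kinase C genes, while Sgk1 is far above Sgk2 and Sgk3.

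None of the 8 genes passed the test between any 2 groups. In edgeR's quasi-likelihood test over all 16567 genes, 0 of 8 had an adjusted p below 0.05 with RvD6si or RvD6 set against vehicle, or with the 2 lipids set against each other. The lowest adjusted p of a member was 0.229, 0.333 and 0.468 in the same order. By the same test 0.525% of all genes were higher and 0.145% lower in RvD6si than in vehicle. In RvD6 against vehicle 0.0% of genes were higher and 0.0% lower, and in RvD6si against RvD6 0.0121% were higher and 0.223% lower. DESeq2, run on all samples and on pairs of groups, also called 0 of 8 in each comparison. It called more of the genes it gave an adjusted p, 8.13% and 8.67% in RvD6si against vehicle, 1.92% and 3.31% in RvD6 against vehicle, and 0.936% and 0.942% with the 2 lipids set against each other.

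At an unadjusted p below 0.05, 1 of the 8 genes was higher in each comparison and 0 were lower. It was Pdpk1 in RvD6si against vehicle, Akt2 in RvD6 against vehicle, and Pdpk1 in RvD6si against RvD6. Over all genes, the shares higher and lower at that level were 8.69% and 7.3% in RvD6si against vehicle, 7.63% and 5.99% in RvD6 against vehicle, and 4.18% and 4.64% in RvD6si against RvD6. With 8 genes, 1 call does not stand out from these shares. No member had groups that did not overlap, where 4.88%, 3.72% and 1.74% of all genes did. The median log2 fold change of the 8 genes was 0.16, 0.09 and 0.08, against 0.02, 0.02 and -0.0039 over all genes.

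The data bound the changes that could have been present. The standard errors of the log2 fold changes of the 8 genes ran from 0.14 to 0.26. The 95% intervals reached from -0.73 to 0.90 in RvD6si against vehicle and from -0.79 to 0.84 in RvD6 against vehicle. They were narrowest for Pdpk1 and widest for Pik3ca.

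**Figure D2:**
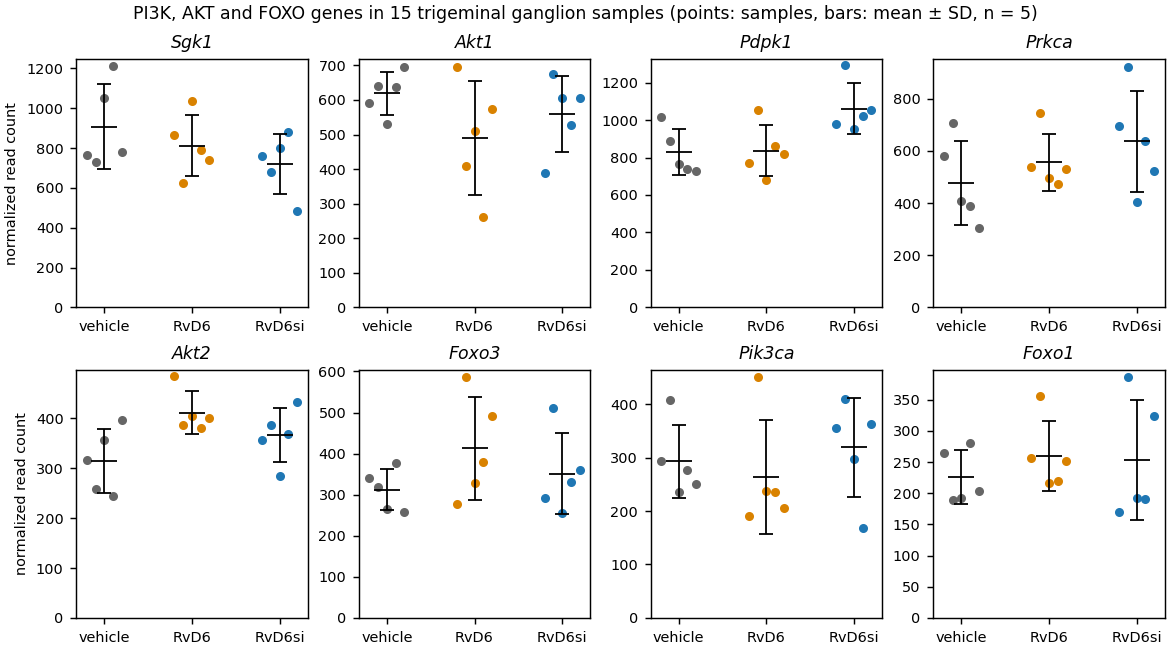
Normalized read count (vertical axis, from 0) of the 8 genes in each of 15 samples, as points, with the mean ± SD of each group of 5. The vehicle, RvD6 and RvD6si points overlap in every panel, with the clearest offsets for Pdpk1 in RvD6si and Akt2 in RvD6.

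Pik3ca, the catalytic subunit that turns receptor signals into PIP3, passed the test in no comparison. It stood at 293 ± 67.9 normalized counts in vehicle and 264 ± 106 in RvD6, and the RvD6si group averaged 319 ± 92.9 (mean ± SD, n = 5). The RvD6 group ran from 191 to 449.7, with replicate 7 alone above 237. The log2 fold change was 0.11 (95% interval -0.42 to 0.65) for RvD6si and -0.17 (95% interval -0.71 to 0.37) for RvD6 against vehicle.

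Pdpk1, which encodes the kinase PDK1 that activates AKT, SGK and protein kinase C alike, had the lowest p of the 8 in both comparisons with RvD6si. Its normalized counts in vehicle replicates 1 to 5 were 1016, 889, 766, 738 and 729.5. In RvD6 replicates 6 to 10 they were 769, 1053, 682, 859 and 819, and in RvD6si replicates 11 to 15 they were 980.3, 1295, 953, 1019 and 1053. In RvD6si, 3 of 5 samples lay above every vehicle sample, and the other two lay below vehicle replicate 1. The group means were 1060.1 ± 137 in RvD6si, 836 ± 138 in RvD6 and 828 ± 123 in vehicle. RvD6si was above vehicle by 0.35 on the log2 scale (SE 0.14, 95% interval 0.05 to 0.65), with an edgeR p of 0.0235 and an adjusted p of 0.229. RvD6 and vehicle differed by -0.0001 (95% interval -0.30 to 0.30). After removal of the length trend described below, the difference of RvD6si from vehicle was 0.22, with an edgeR adjusted p of 0.388.

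Akt1 and Akt2, the kinases at the centre of the pathway, had log2 fold changes of opposite sign in the RvD6 group, and neither passed the test. Akt2, the isoform best known from insulin-stimulated glucose uptake, read 317, 259, 356, 244 and 397 in vehicle. It read 485, 386, 405, 381 and 399.6 in RvD6 and 357, 387, 284, 369 and 432 in RvD6si. The RvD6 samples lay close together, 3 of 5 above every vehicle sample. The log2 fold change of RvD6 against vehicle was 0.37 (SE 0.16, 95% interval 0.03 to 0.72), with an edgeR p of 0.0362 and an adjusted p of 0.333. For RvD6si it was 0.21 (95% interval -0.14 to 0.56).

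Akt1, the widely expressed isoform tied to cell growth and survival, read 590.5, 639.7, 530.4, 639 and 696 in vehicle. In RvD6 it read 696, 408, 510.0, 262 and 574, a spread of 2.66-fold, against 1.31-fold among the vehicle samples. The lowest value was that of RvD6 replicate 9, the sample with the highest skeletal muscle markers, at 3182 CPM, and the lowest sensory neuron markers, at 4014 CPM. In RvD6si the values were 388, 676, 605, 527 and 606. The log2 fold change was -0.35 for RvD6 (95% interval -0.79 to 0.10, adjusted p = 0.499 by edgeR) and -0.15 for RvD6si (95% interval -0.59 to 0.30, adjusted p = 0.787). Without replicate 9 the difference of RvD6 was -0.20. Over the 15 samples, Akt1 in log2 CPM had a Pearson correlation of 0.85 with the slope of log2 CPM on GC content in each sample (0.62 without the 2 samples farthest from the median slope, Spearman 0.69). With the sensory neuron markers it was 0.70 (0.49 without the 2 farthest samples, Spearman 0.49), and with the muscle markers -0.47 (0.22 without the 2 farthest, Spearman -0.07). All points share their library with both measures. With the GC trend removed from each sample the difference of RvD6 was -0.33. With the muscle markers as a covariate it was -0.19, and the part of the sensory neuron markers was not tested.

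Sgk1, an immediate target of glucocorticoids and serum that shares substrates with AKT, had its lowest mean in RvD6si, without passing the test. Vehicle replicates 1 to 5 read 763, 729, 1052, 1210.3 and 778. RvD6 read 866, 625, 1035, 789.5 and 738, and RvD6si 762, 677, 799.6, 879 and 483. Vehicle replicates 3 and 4 carried the higher vehicle mean. The lowest value was that of RvD6si replicate 15, which held the most granulocyte precursor markers of its group. That sample also had the lowest total counts of all, 4125962, and the highest erythroid markers, at 12855 CPM. The part of these traits in its value was not tested. All RvD6 samples, which read 625 to 1035, held granulocyte precursor markers too, at 690.1 to 2294 CPM. Over the 15 samples, Sgk1 in log2 CPM had a Pearson correlation of -0.19 with these markers (Spearman -0.16). The log2 fold change was -0.33 for RvD6si (SE 0.19, 95% interval -0.73 to 0.06, adjusted p = 0.403 by edgeR) and -0.17 for RvD6 (95% interval -0.57 to 0.22). Without RvD6si replicate 15 the first was -0.22.

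Prkca, a calcium- and lipid-dependent kinase whose tail is phosphorylated by mTORC2, spread widely within groups. The vehicle samples ran from 303 to 706 normalized counts, the RvD6 samples from 475 to 747 and the RvD6si samples from 403 to 922. Its difference of RvD6si from vehicle, 0.41 on the log2 scale, was the largest of the 8 genes in that comparison, with an SE of 0.23 and a 95% interval of -0.08 to 0.90 (adjusted p = 0.411 by edgeR). Only 1 RvD6si sample, replicate 12, lay above every vehicle sample.

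Foxo1 and Foxo3, the transcription factors that AKT and SGK1 hold in the cytoplasm, overlapped between all groups. Foxo3 averaged 312 ± 50.8 normalized counts in the vehicle group, 413 ± 126 with RvD6 and 351 ± 98.6 with RvD6si. In RvD6, 3 of 5 Foxo3 values lay above every vehicle value, with a log2 fold change of 0.39 (SE 0.22, adjusted p = 0.456 by edgeR). Foxo1 stood at 226 ± 43.3, 259.9 ± 56.1 and 253 ± 96.3 in the same order. Its RvD6si values fell into a pair at 323 and 387 and a trio between 171 and 193, so the mean describes neither. Without RvD6si replicate 12, the differences of RvD6si from vehicle changed sign, to -0.05 for Foxo1 and -0.01 for Foxo3, from 0.16 and 0.16.

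**Figure D3:**
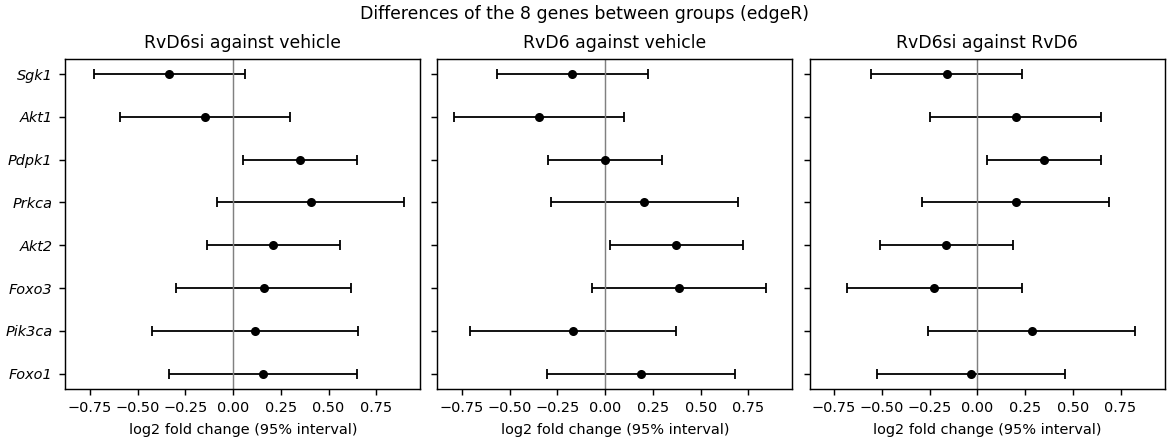
Log2 fold change (horizontal axis) of the 8 genes in the 3 comparisons, 1 a panel, with 95% intervals from edgeR and a line at 0. Only the intervals of Pdpk1 in both panels with RvD6si and of Akt2 in the panel of RvD6 against vehicle leave 0 out, before any adjustment for the number of genes.

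The positions of these genes are those of GRCm38. Pik3ca (ENSMUSG00000027665.13) spans chr3:32397671-32468486 on the plus strand, Pdpk1 (ENSMUSG00000024122.16) chr17:24073680-24150924 on the minus strand, and Akt1 (ENSMUSG00000001729.14) chr12:112653821-112674884 on the minus strand. Akt2 (ENSMUSG00000004056.15) spans chr7:27591552-27640826 on the plus strand, Sgk1 (ENSMUSG00000019970.15) chr10:21882184-21999903 on the plus strand, and Prkca (ENSMUSG00000050965.14) chr11:107933387-108343928 on the minus strand. Foxo1 (ENSMUSG00000044167.6) lies at chr3:52268336-52353221 on the plus strand and Foxo3 (ENSMUSG00000048756.11) at chr10:42181841-42276755 on the minus strand. Counts are over exons. Of the exonic bases of Foxo1, 7.78% overlap Gm20402 on the opposite strand, and of those of Prkca 0.334% overlap Apoh. The counting did not use strand, and reads in such overlaps cannot be assigned to a gene.

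RvD6si and RvD6, which differ as stereoisomers and were given on the same schedule, were compared directly as 1 pair of compounds. None of the 8 genes passed the test. Pdpk1 differed by 0.35 on the log2 scale, with the higher mean in RvD6si (SE 0.14, 95% interval 0.05 to 0.65), with an edgeR p of 0.0236 and an adjusted p of 0.468. Only 2 of 5 RvD6si samples lay above every RvD6 sample. The other 7 differences ran from -0.23 for Foxo3 to 0.28 for Pik3ca, and their 95% intervals all held 0, from -0.68 at the lowest to 0.82 at the highest. These intervals do not show that the compounds act alike. For Pik3ca, differences of up to 1.77-fold lie inside them. All 5 RvD6 samples held more granulocyte precursor markers than any vehicle sample. RvD6 replicates 8 and 9 held the most muscle markers, and RvD6si replicate 15 the most granulocyte precursor markers of its group. With these 3 samples left out, 0 of 8 genes had an unadjusted p below 0.05 in edgeR. RvD6 replicates 6, 7 and 10, at 1761, 2294 and 2165.5 CPM of granulocyte precursor markers, stayed in that fit.

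Among the FOXO target genes, Cdkn1b passed edgeR's adjusted threshold, close to its edge. Cdkn1b (ENSMUSG00000003031.14, chr6:134920401-134925513, plus strand) encodes p27Kip1, a cyclin-dependent kinase inhibitor that FOXO factors are known to activate and that AKT itself phosphorylates. In vehicle replicates 1 to 5 its normalized counts were 431, 456, 473, 456 and 596. RvD6 replicates 6 to 10 read 500.2, 487, 496, 492 and 619, and RvD6si replicates 11 to 15 read 268, 284, 335, 302 and 320.2. Every RvD6si sample lay below every sample of the other groups, while the vehicle and RvD6 samples overlapped. Over all genes, 4.88% did not overlap in RvD6si against vehicle and 1.74% in RvD6si against RvD6. Of the 88 pathway list genes tested, 1 and 2 did not overlap in these comparisons.

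Cdkn1b fell by 0.68 on the log2 scale in RvD6si against vehicle (SE 0.14, 95% interval -0.97 to -0.39, adjusted p = 0.0346 by edgeR). It fell by 0.77 in RvD6si against RvD6 (SE 0.14, 95% interval -1.07 to -0.48, adjusted p = 0.0247 by edgeR). RvD6 and vehicle differed by 0.09 (95% interval -0.20 to 0.38, adjusted p = 0.822). Both comparisons share the RvD6si samples. The direction of both held in all 26 alternatives, but the calls lay near the threshold. Leaving out 1 of the 10 samples compared kept each call in only 3 of 10 fits. Over all 15 samples left out in turn, the adjusted p ran from 0.0277 to 0.105 for the first call and from 0.0211 to 0.104 for the second. The first was lost without any of vehicle replicates 1 to 5 or without RvD6si replicate 11 or 14, and the second without RvD6 replicate 8, 9 or 10 or RvD6si replicate 11, 12, 13 or 14. Of 11 other settings, 7 kept the first call and 6 the second. With DESeq2 on all samples the adjusted p was 1.03e-04 and 6.18e-06. Without RvD6 replicates 8 and 9 and RvD6si 15 the log2 fold changes were -0.70 and -0.83, with edgeR adjusted p of 0.0546 and 0.0577. With the granulocyte precursor markers as a covariate they were -0.68 and -0.73, with edgeR adjusted p of 0.0508 and 0.714.

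The windows around transcription starts are shown for Cdkn1b, the only list gene past edgeR's adjusted threshold. They are also shown for the members whose windows hold a match to a FOXO or a glucocorticoid receptor element. Each runs from 250 bases before to 50 bases after a start in RefSeq on GRCm38.p6, 5′ to 3′ on the strand of the gene, and capitals mark a match. The FOXO element searched was TGTTTAC, with its reverse complement GTAAACA. The glucocorticoid response element searched was GNACA and TGTNC with 3 bases of any kind between them, which reads alike on both strands. The elements do not overlap each other. The windows are chr6:134920151-134920450 on the plus strand for Cdkn1b, chr12:112674835-112675134 on the minus strand for Akt1 and chr10:21993640-21993939 on the plus strand for Sgk1.
Cdkn1b: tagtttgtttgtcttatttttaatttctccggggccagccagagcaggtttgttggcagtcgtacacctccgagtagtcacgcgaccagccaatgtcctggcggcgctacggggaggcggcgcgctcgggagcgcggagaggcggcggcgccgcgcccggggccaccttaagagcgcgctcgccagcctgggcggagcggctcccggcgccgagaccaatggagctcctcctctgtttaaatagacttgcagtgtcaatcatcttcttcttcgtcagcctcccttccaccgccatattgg
Akt1: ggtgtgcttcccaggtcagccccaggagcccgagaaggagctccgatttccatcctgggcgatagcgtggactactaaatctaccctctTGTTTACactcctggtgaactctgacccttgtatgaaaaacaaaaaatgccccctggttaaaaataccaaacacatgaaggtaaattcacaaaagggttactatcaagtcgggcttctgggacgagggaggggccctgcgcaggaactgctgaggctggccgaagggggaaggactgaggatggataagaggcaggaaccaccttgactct
Sgk1: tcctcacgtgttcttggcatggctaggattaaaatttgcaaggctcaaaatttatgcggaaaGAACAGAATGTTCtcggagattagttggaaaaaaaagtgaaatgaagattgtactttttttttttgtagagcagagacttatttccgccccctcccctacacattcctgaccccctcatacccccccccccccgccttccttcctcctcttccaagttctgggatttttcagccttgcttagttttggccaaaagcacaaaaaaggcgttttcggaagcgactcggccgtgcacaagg

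The 8 members had 18 windows in the table, from 1 for Pik3ca, Prkca, Foxo1 and Foxo3 to 6 for Sgk1. The FOXO element was in 1 of these 18, that of Akt1, with its first base at -161 from the start, and in 3.65% of all 32851 windows. The Cdkn1b window holds no match to it. The glucocorticoid response element was in 1 of 18, that of Sgk1, at -188, and in 0.475% of all windows. A match describes the letters only, and nothing about binding was measured here.

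The other genes of the pathway were read from 9 lists with 95 genes, of which 88 were tested. At an adjusted p below 0.05 in edgeR, Cdkn1b was the only one called in RvD6si against vehicle, and also in RvD6si against RvD6, and 0 were called in RvD6 against vehicle. DESeq2 on all samples called 6 higher and 1 lower, 0 higher and 2 lower, and 1 higher and 0 lower in these comparisons. Of all genes it gave an adjusted p, it called 8.13%, 0.936% and 1.92% in the same order, in either direction. With 88 genes, the 7 calls in RvD6si against vehicle do not stand out from that share. The 6 higher there were Inpp4a, Gab1, Prkci, Rictor, Ccng2 and Errfi1. At an unadjusted p below 0.05, 10 were higher and 3 lower in RvD6si against vehicle, 11 and 0 in RvD6 against vehicle, and 2 and 5 in RvD6si against RvD6. As shares of the 88 genes these are 11.4% and 3.41%, 12.5% and 0%, and 2.27% and 5.68%, beside 8.69% and 7.3%, 7.63% and 5.99%, and 4.18% and 4.64% of all genes. The median log2 fold change over the 88 genes was 0.14 in RvD6si and 0.05 in RvD6 against vehicle.

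In RvD6si against vehicle, the list of mTORC2 subunits had 0 of 7 genes past edgeR's adjusted threshold and 1 past the unadjusted one. That was Rictor, the scaffold of mTORC2, at 237 ± 67.6 normalized counts in RvD6si against 141 ± 39.7 in vehicle. Its log2 fold change was 0.74 (SE 0.24, adjusted p = 0.131 by edgeR and 0.0381 by DESeq2 on all samples). The RvD6 group stood at 229 ± 54.5, 0.68 above vehicle. Deptor, an inhibitor of mTOR, stood at 1069.5 ± 143 in RvD6si and 947 ± 90.6 in vehicle, with a log2 fold change of 0.17 (adjusted p = 0.541 by edgeR).

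In RvD6si against vehicle, the insulin and IGF inputs upstream of AKT had a median of 0.48 over 7 tested genes, with 2 past the unadjusted threshold. Over all genes the median was 0.02, and 8.69% were higher and 7.3% lower at that threshold. Gab1, a docking protein that recruits PI3K, had a log2 fold change of 0.56 (SE 0.19, adjusted p = 0.142 by edgeR), and Igf1r, the IGF1 receptor, of 0.55 (SE 0.26, adjusted p = 0.303). The 10 PI3K subunits had a median of 0.32 with 1 past the unadjusted threshold, Pik3cd at 0.46 (adjusted p = 0.27). The regulatory subunit gene Pik3r3 was at 0.39, and 24.3% of its exonic bases overlap a gene model on the same strand. The 9 lipid and AKT phosphatases, which oppose the pathway, had a median of 0.34 with 1 past the unadjusted threshold. That was Inpp4a, which removes a phosphate from PI(3,4)P2, at 0.62 (adjusted p = 0.133), and the AKT phosphatase Phlpp2 was at 0.81 (adjusted p = 0.393). In RvD6 against vehicle the medians of the inputs, PI3K subunits and phosphatases were 0.43, 0.06 and 0.36. These lists then had 3, 0 and 3 genes past the unadjusted threshold.

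Among the 12 tested relatives of AKT, SGK and protein kinase C, the median in RvD6si against vehicle was 0.30 and 2 passed the unadjusted threshold. In RvD6 against vehicle it was 0.15 and 2 passed. Prkci, an atypical protein kinase C involved in cell polarity, stood at 163 ± 63.3 normalized counts in RvD6si and 70.3 ± 22.7 in vehicle, a log2 fold change of 1.20 (adjusted p = 0.101 by edgeR). Prkcb, a conventional isoform, was at 0.51 (adjusted p = 0.249). The 13 AKT and SGK substrates had a median of 0.12, with 1 past the unadjusted threshold. That was Akt1s1, which encodes the mTORC1 inhibitor PRAS40, at 0.62 (adjusted p = 0.31), and Mdm2, the p53 ubiquitin ligase, was at 0.38 (adjusted p = 0.317). Foxo4, the other FOXO gene tested, had under 10 normalized counts on average in vehicle and RvD6si, and its interval of -1.95 to 2.18 says little.

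Of the 17 FOXO targets tested in RvD6si against vehicle, 9 had a positive and 8 a negative log2 fold change, with a median of 0.11. Only Cdkn1b passed the adjusted threshold in edgeR, and 1 gene in each direction passed the unadjusted one. The other was Ccng2, which encodes cyclin G2, an atypical cyclin linked to cell cycle arrest, named here after its values were seen. Normalized counts of Ccng2 averaged 148 ± 33.4 (SD, n = 5 in each group) for vehicle, 172 ± 45.1 for RvD6 and 254 ± 77 for RvD6si, with 4 of 5 RvD6si samples above every vehicle sample. Its log2 fold change was 0.77 against vehicle (SE 0.25, 95% interval 0.26 to 1.29, adjusted p = 0.125 by edgeR and 0.034 by DESeq2 on all samples) and 0.58 against RvD6 (adjusted p = 0.494 by edgeR), of opposite sign to Cdkn1b. The 12 tested glucocorticoid-responsive genes, listed because Sgk1 is one, had a median of -0.25, with 4 positive and 8 negative and 0 past the adjusted threshold. Errfi1, a feedback inhibitor of the EGF receptor, stood at 0.73 (SE 0.20, adjusted p = 0.0845 by edgeR) and the metallothionein Mt1 at -0.79 (SE 0.27, adjusted p = 0.149). In RvD6 against vehicle the median of this list was -0.22, with 3 positive and 9 negative.

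**Figure D4:**
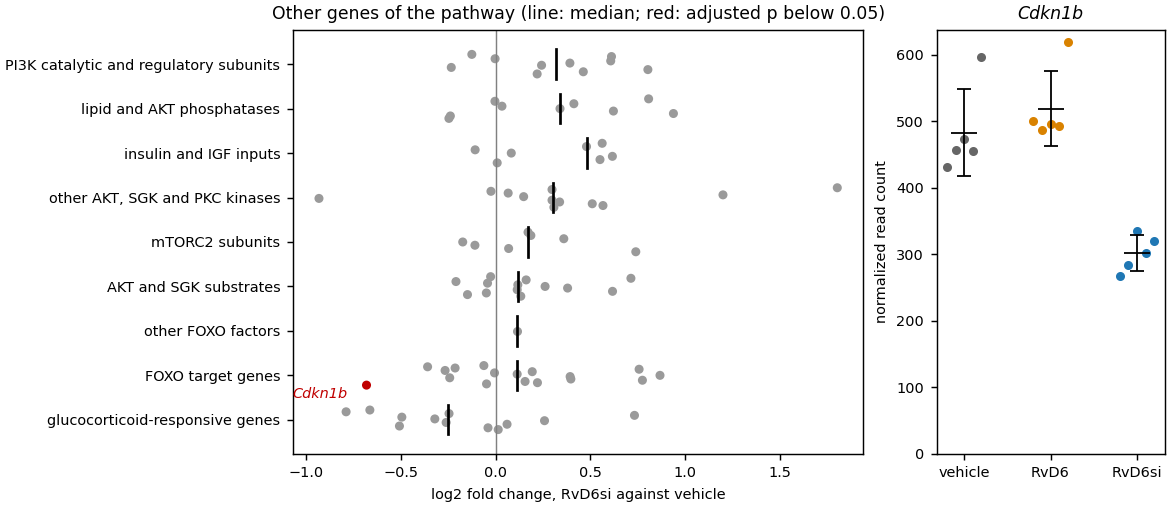
Left, log2 fold change (horizontal axis) of the 88 other genes of the pathway in RvD6si against vehicle, by list, with the median of each list as a line and red for an adjusted p below 0.05 in edgeR. Right, normalized read count of Cdkn1b in each sample with mean ± SD (n = 5). Cdkn1b is the only red point, and its 5 RvD6si samples, from 268 to 335, lie below all 10 others.

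In RvD6 against vehicle, 5 of the 88 genes had groups that did not overlap, all higher in RvD6. This count lies near the share of all genes that did not overlap, 3.72%. These genes, picked out after their values were seen, were Inpp5d, Inpp4b, Pik3ap1, Irs1 and Pkn2. Inpp5d, which encodes the lipid phosphatase SHIP1, read 87.3 ± 32.2 normalized counts in RvD6 and 31.4 ± 16.2 in vehicle, with an edgeR adjusted p of 0.199. Pik3ap1, which encodes a PI3K adaptor, read 45.8 ± 16.8 and 12.2 ± 7.85, with an edgeR adjusted p of 0.378. Pkn2 read 247 ± 53.0 and 138 ± 25.7, with an adjusted p of 0.155 by edgeR and 0.0297 by DESeq2 on all samples. Inpp4b read 59.0 ± 9.42 and 20.2 ± 10.6 (edgeR adjusted p 0.278), and Irs1 51.2 ± 12.2 and 22.2 ± 12.3 (edgeR adjusted p 0.297). The granulocyte precursor markers, 690.1 to 2294 CPM in RvD6 and 112 to 582 CPM in vehicle, did not overlap between these groups either. Their part in these levels was not tested.

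Across the 15 samples some of the 8 genes varied together. Foxo1 and Foxo3 had a Pearson correlation of 0.75 over the 15 samples in log2 CPM (Spearman 0.70), 0.74 with the group means taken out, and 0.52 without the 2 samples farthest from the median. Prkca and Pdpk1 correlated at 0.73 (Spearman 0.70), 0.74 with the group means taken out and 0.55 without 2 samples. Sgk1 ran against Pdpk1 at -0.67 (Spearman -0.69), at -0.62 with the group means taken out and -0.65 without 2 samples. These are descriptions of 28 pairs whose points share library, depth and normalization.

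Single samples stood apart. RvD6si replicate 12 was above the 15-sample mean in 7 of 8 genes and was the highest of all in 3, and RvD6 replicate 7 was above it in 6 and highest in 2. Samples also differed in how counts depended on gene length. The slope of log2 CPM on log2 exonic length, relative to the mean sample, ran from -0.107 to 0.00479 in vehicle, from -0.0704 to 0.0834 in RvD6 and from -0.00793 to 0.141 in RvD6si. Prkca and Pdpk1, with exonic lengths of 8992 and 10935 bases, correlated with this slope at 0.71 and 0.64 over 15 samples (Spearman 0.67 and 0.67, and 0.69 and 0.67 without 2 samples). The Pearson correlation was 0.42 for Pik3ca (9088 bases), 0.46 for Foxo3 (7571 bases) and 0.06 for Foxo1 (8665 bases). It was 0.005 for Akt2, -0.49 for Sgk1 and -0.57 for Akt1, so members of similar length differed in it. With the length trend removed from each sample, the log2 fold changes of RvD6si against vehicle were 0.27 for Prkca and 0.22 for Pdpk1, in place of 0.41 and 0.35.

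**Figure D5:**
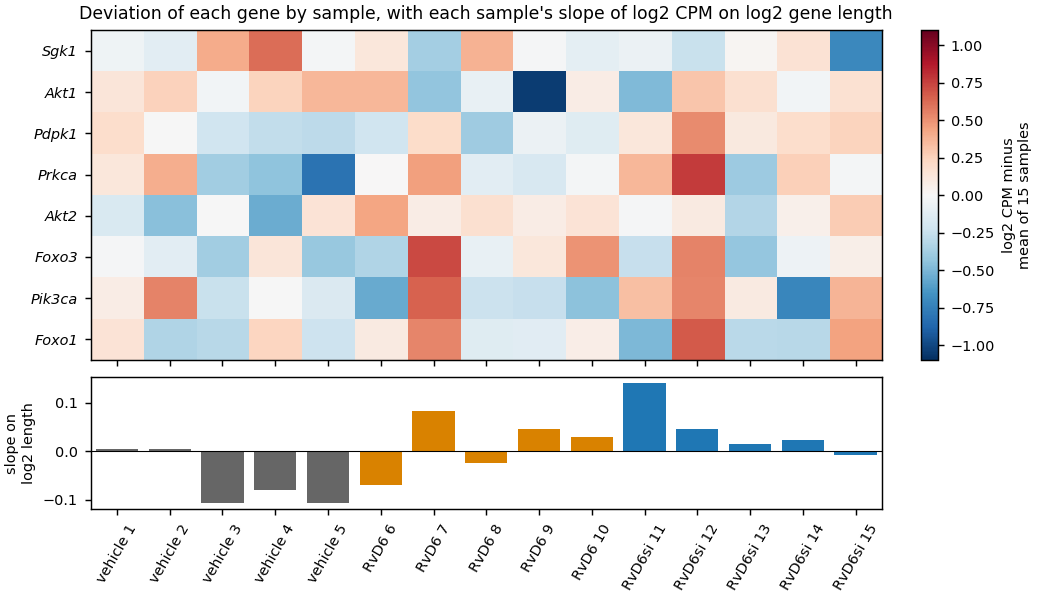
Top, deviation of log2 CPM from the mean of 15 samples for each of the 8 genes (rows) in each sample (columns), red above and blue below. Bottom, slope of log2 CPM on log2 exonic length in each sample, relative to the mean sample. RvD6 7 and RvD6si 12 are red in most rows, and vehicle 3 to 5 have the lowest slopes.

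The genes most like each member in log2 CPM over the 15 samples, by Pearson correlation, were Usp31 (0.943) and Pde1c (0.926) for Prkca, Jph4 (0.917) and Clstn1 (0.906) for Pdpk1, and Pbrm1 (0.908) and Fa2h (0.905) for Foxo3. For Akt1 they were 2310061I04Rik (0.907) and Ninj1 (0.902), for Foxo1 Pcbp2 (0.872) and Zmiz2 (0.866), and for Pik3ca Cacna1b (0.870) and Hip1r (0.852). Those of Sgk1 were Drg1 (0.849) and Idh3a (0.836) and those of Akt2 Rps28 (0.840) and Xkr4 (0.828). Without the 2 samples farthest from the median of the member, these correlations ran from 0.554 for Akt2 with Xkr4 to 0.914 for Prkca with Usp31. Those of Akt1 were then 0.755 and 0.734. Each pair was picked as the highest among the 16567 genes tested, which favours high values. No member was among the 2 genes most like another.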

How the data were processed

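Total RNA of 15 trigeminal ganglion samples was made into libraries with an adapted Smart-seq2 protocol (oligo-dT priming, template switching, PCR without molecular identifiers). The authors aligned reads with Rsubread to GRCm38 with a GENCODE annotation and summed them over the exons of each gene in featureCounts (Subread 1.6.5 per the labels, 1.5.0-p1 per the header). Strand was not used. The deposited values are raw read counts for 55573 genes, with exonic lengths. Gene symbols of 99.8% of IDs came from reference tables.

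Counts were tested with edgeR 4.0.16 (quasi-likelihood F test, TMM, filterByExpr with a count minimum of 10, 1 fit of all 15 samples, Benjamini-Hochberg adjustment over 16567 genes, threshold 0.05) in R 4.3.3, and with DESeq2 1.42.0 as an alternative. Log2 CPM used a prior count of 2, and normalized counts used DESeq2 size factors. The test was tested on simulated data. All pairs of replicates differed beyond sampling noise, with chi-square per degree of freedom from 12.0 to 54.2 over 30 pairs. Intervals from edgeR cover the spread between samples. Other settings were RLE normalization, other filters, fits on 2 groups, length and GC trends removed, marker covariates, and each sample left out. GC content was known for 99.9% of tested genes.

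The members and lists were chosen with earlier results of these data known. Named genes were all members, the list genes past the adjusted threshold or else the 2 of each list with the lowest p in RvD6si against vehicle, and the 2 genes most correlated with each member. Others are marked as chosen after their values were seen. One related gene is not reported here. Promoter windows came from RefSeq (GRCm38.p6), positions from GENCODE on GRCm38.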

Additional observations from a re-analysis of the deposited data

Results flagged for a closer look

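Within groups of 5, the highest sample stood apart by Dixon's criterion (gap over range above 0.71) in 9 of 75 groups screened, those of the 8 members, the 16 named list genes and Ccng2. A rate of about 1 in 20 groups holds for independent, normally distributed values. The 75 groups share the same 15 samples, so their count cannot be read as an excess over that rate. RvD6 replicate 7 gave 4 of them, with normalized counts of 747 for Prkca, 355 for Foxo1, 449.7 for Pik3ca and 413 for Pik3cd. RvD6 replicate 6 was apart for Akt2 at 485, and RvD6 replicate 9 for Deptor at 1088. Vehicle replicate 2 was apart for Deptor at 1104. For Cdkn1b, vehicle replicate 5 at 596 and RvD6 replicate 10 at 619 were apart, both on the side away from the RvD6si samples. Without vehicle replicate 5, Cdkn1b in RvD6si against vehicle was at -0.59 on the log2 scale with an edgeR adjusted p of 0.0965, and without RvD6 replicate 10 it was at -0.70 against RvD6 with an adjusted p of 0.0739.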

How the results depend on the processing

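No member passed the adjusted threshold in any of 26 alternatives, where the lowest adjusted p over 624 recomputed values was 0.1001, for Pdpk1. The direction of 593 values was kept and that of 31 reversed, and 13 of the 24 member results had no reversal. The cause of these reversals was not tested. No paired analysis was possible because the groups share no replicate number. In RvD6si against vehicle, Pik3ca reversed to -0.031 with the length trend and -0.0064 with the GC trend removed. In RvD6 against vehicle, Foxo1 was at -0.040 with the granulocyte covariate and Pik3ca at 0.128 with the muscle covariate. Pdpk1, at -0.0001, was at 0.015 with RLE, 0.036 with at least 10 counts in every sample, 0.016 and 0.010 with DESeq2 on all samples and on 2 groups, 0.170 and 0.058 with the muscle and granulocyte covariates and 0.067 without the 3 libraries RvD6 8, RvD6 9 and RvD6si 15, an alternative chosen after seeing the data. In RvD6si against RvD6, the muscle covariate gave -0.0060 for Akt1, 0.372 for Sgk1, -0.231 for Prkca and -0.096 for Pik3ca, the granulocyte covariate -0.0070 for Prkca and 0.226 for Foxo1, and the fit without 3 libraries -0.0077 for Akt1 and 0.091 for Sgk1. Cdkn1b in RvD6 against vehicle was at -0.020 with the GC trend removed. With 1 sample left out, values that reversed ran from -0.047 to 0.271 for Foxo1 and -0.012 to 0.248 for Foxo3 in RvD6si against vehicle, from -0.091 to 0.080 for Pdpk1 in RvD6 against vehicle, from -0.234 to 0.102 for Foxo1 in RvD6si against RvD6, and from -0.566 to 0.611 for Foxo4 in RvD6si against vehicle.

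The count of members at an unadjusted p below 0.05 was 1 in each comparison. In RvD6si against vehicle it was 0 with the muscle covariate and 0 to 2 with 1 sample left out. In RvD6 against vehicle it was 0 without a filter, with the length trend removed, with the granulocyte covariate and without 3 libraries, 2 with the muscle covariate, and 0 to 2 with 1 sample left out. In RvD6si against RvD6 it was 0 with either covariate and without 3 libraries, and 0 to 2 with 1 sample left out. Over all genes, the count of changed genes in RvD6si against vehicle, 111, was 920 and 979 with DESeq2 on all samples and on 2 groups, 315 with at least 10 counts in every sample, 63 with the length trend removed, 59 with the granulocyte covariate and 0 to 229 with 1 sample left out, the lowest without RvD6si replicate 11. In RvD6 against vehicle, 0 became 56 without a filter, 24 with at least 10 counts, 369 and 664 with DESeq2, 38 with edgeR on 2 groups, 2 and 1 with the muscle and granulocyte covariates, 36 without 3 libraries and 0 to 51 with 1 sample left out. In RvD6si against RvD6, 39 became 59, 23, 185 and 182, 17, 2 and 3, 94, and 2 to 156 in the same settings. With DESeq2, Inpp4a, Gab1, Prkci, Rictor, Ccng2 and Errfi1 passed the threshold in RvD6si against vehicle, with adjusted p of 0.0399, 0.0457, 0.0182, 0.0381, 0.034 and 0.0118 on all samples.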
